A study of Mus musculus with 31 samples.

Results

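In uninjured mouse spinal cord, 1149 of 96670 accessible chromatin regions (1.19%) were open to a similar degree in ependymal cells and in cells of the oligodendrocyte progenitor class, and little open in the vascular classes. They were chosen from 1 single-cell ATAC sample of non-neuronal cells, in which a transposase cuts open chromatin and the cut sites are counted per region (a peak) and cell. Cuts were summed over the 754 cells of the authors' classes EP1, EP2 and EP3 (ependymal), the 67 cells of the class OPC and the 90 cells of the classes VEC and PER (vascular), and each sum was scaled to cuts per 1000000 cuts of its pool (CPM). A member has at least 10 CPM in ependymal and in OPC cells, levels within 2-fold of each other, and a vascular level of at most 0.25 times the smaller of them. These values chose the members and are given as a description, with no test. With 1 sample there is no replicate, and intervals are exact Poisson intervals at the 95% level, which cover counting error only.

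All samples were from spinal cord of mice of the C57BL/6 background. Bulk RNA came from ependymal cells that were isolated from digested tissue by flow cytometry and made into 12 Smart-seq2 libraries, each named as made from 1k cells. The 6 groups of 2 libraries were Foxj1-tdT and Foxj1-Olig2-tdT mice in 3 states, uninjured, 1 dpi and 5 dpi, where dpi is taken to mean days post injury. The 6 single-cell RNA samples were 1 each of both genotypes uninjured, at 2 wpi and at 4 wpi, where wpi is taken to mean weeks post injury. The names give Foxj1, the master regulator of motile cilia, and a red fluorescent reporter in both genotypes, and in the second also Olig2, a bHLH factor that directs the oligodendrocyte lineage. How each construct is driven, the age of the mice and the kind of injury are not given in the sources used here. No label states that replicates are different mice, and p-values therefore reflect only the spread of these libraries, which may be technical.

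Ependymal cells line the central canal, beat motile cilia and keep features of neural stem cells, while oligodendrocyte progenitors are dividing glia that form myelinating cells. Both descend from the neural tube epithelium, unlike the endothelial cells and pericytes of vessels. Open chromatin marks promoters, which lie at gene starts and are often rich in CG pairs, and enhancers, which lie away from starts and tend to be open in fewer cell types. Olig2 binds short DNA words of the form CANNTG, called E-boxes.

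The sequences below are promoters that lie inside members, shown because the content of CG pairs set the members apart from other open promoters. Each is the 250 bases before a RefSeq gene start on GRCm38.p6, read 5′ to 3′ on the strand of the gene, with each CG pair in capitals. The first group belongs to Pou3f2 (chr4:22488367-22488616, minus strand) and Sox2 (chr3:34649745-34649994, plus strand), transcription factors of neural stem cells. Next come Kcnj10 (chr1:172340960-172341209, plus strand), a glial potassium channel, Ptprz1 (chr6:22875252-22875501, plus strand), a receptor phosphatase of progenitors, and Gabrb1 (chr5:71699682-71699931, plus strand), a GABA receptor subunit. The last are Fez1 (chr9:36821641-36821890, plus strand), an adaptor of kinesin transport, Astn1 (chr1:158362054-158362303, plus strand), an adhesion protein of migrating neurons, and Nfia (chr4:97581693-97581942, plus strand), a transcription factor of gliogenesis.
Pou3f2: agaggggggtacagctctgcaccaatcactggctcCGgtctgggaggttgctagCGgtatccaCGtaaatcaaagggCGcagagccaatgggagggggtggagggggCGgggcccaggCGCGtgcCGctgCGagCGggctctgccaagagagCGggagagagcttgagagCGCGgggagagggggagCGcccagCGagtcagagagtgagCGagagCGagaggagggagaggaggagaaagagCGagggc
Sox2: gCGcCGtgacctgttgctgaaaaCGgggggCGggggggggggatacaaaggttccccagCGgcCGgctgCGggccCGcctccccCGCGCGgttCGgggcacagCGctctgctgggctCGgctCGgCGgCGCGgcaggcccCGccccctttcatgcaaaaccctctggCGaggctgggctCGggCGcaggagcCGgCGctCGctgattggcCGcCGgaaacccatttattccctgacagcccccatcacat
Kcnj10: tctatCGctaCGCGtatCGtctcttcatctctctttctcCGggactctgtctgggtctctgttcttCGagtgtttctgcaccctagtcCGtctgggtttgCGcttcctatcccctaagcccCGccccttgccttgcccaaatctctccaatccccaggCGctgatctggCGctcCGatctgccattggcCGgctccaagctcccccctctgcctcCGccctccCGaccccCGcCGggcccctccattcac
Ptprz1: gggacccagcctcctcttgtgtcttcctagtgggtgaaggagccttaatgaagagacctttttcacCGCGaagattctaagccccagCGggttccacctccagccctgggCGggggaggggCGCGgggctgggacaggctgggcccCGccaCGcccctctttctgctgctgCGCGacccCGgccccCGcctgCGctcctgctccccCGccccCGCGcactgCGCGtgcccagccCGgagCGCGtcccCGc
Gabrb1: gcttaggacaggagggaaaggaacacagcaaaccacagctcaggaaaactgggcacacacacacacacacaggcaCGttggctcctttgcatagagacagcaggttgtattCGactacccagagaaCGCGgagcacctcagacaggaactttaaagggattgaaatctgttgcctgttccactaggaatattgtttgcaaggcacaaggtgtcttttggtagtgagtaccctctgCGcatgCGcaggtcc
Fez1: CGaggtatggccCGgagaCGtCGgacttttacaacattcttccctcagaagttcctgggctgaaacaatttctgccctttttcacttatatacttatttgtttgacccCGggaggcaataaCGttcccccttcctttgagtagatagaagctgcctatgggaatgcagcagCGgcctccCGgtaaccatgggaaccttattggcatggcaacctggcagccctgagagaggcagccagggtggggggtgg
Astn1: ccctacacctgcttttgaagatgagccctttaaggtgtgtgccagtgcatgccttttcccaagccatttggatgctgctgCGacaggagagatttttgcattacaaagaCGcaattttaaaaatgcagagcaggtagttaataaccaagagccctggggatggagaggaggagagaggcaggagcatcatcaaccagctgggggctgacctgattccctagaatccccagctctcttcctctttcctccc
Nfia: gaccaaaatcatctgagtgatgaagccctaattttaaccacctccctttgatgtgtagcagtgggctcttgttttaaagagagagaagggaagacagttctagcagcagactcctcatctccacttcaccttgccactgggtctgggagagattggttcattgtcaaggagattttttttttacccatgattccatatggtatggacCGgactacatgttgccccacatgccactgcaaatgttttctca
Ptprz1 held 22 CG pairs, Sox2 27, Pou3f2 18 and Kcnj10 17. Fez1 held 8, Gabrb1 6, Astn1 2 and Nfia 1. The mature miRNAs below, from RefSeq, are made from hairpins that lie inside 2 members, with the seed (bases 2 to 8, the part that pairs with target RNAs) in capitals.
miR-9-5p: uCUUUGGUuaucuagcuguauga
miR-9-3p: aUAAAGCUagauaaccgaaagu

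The strongest member was chr13:83712612-83734652, a region of 22040 bases at the start of C130071C03Rik, the long noncoding RNA that hosts the miR-9-2 hairpin. It held 400 CPM in ependymal cells (interval 392 to 408), 362 in OPC cells (339 to 386), 422 in astrocytes and 52.9 in vascular cells. All 67 OPC cells had at least 1 cut in it. Coordinates are on mm10 as the authors' list writes them.

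The other 9 of the 10 strongest members lay at or near genes of neural stem cells and glia. The promoter region of Pou3f2, chr4:22485824-22492387, held 184 CPM in ependymal cells (interval 178 to 189) and 192 in OPC cells (175 to 210). Pou3f3, a close relative, had a member of 9961 bases across its start with 138 and 170 CPM. Rfx4, a factor of neural tube development and cilia, had one with 134 and 109 CPM, and Sall3, a zinc finger factor, one with 129 and 105 CPM. Sox2 had 3 members, of which 2 were among the strongest. The region 2348 bases downstream of its start, chr3:34652343-34669480, held 223 CPM in ependymal and 178 in OPC cells, and the upstream region chr3:34637080-34644582 held 116 and 107. The Sox2 promoter itself, chr3:34647648-34651830, held 128 and 94.8 CPM.

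Membrane proteins of glia made up the rest of the 10. Kcnj10, which encodes the potassium channel Kir4.1, had a member across its start (chr1:172340344-172347421) with 187 CPM in ependymal, 147 in OPC and 360 in astrocyte cells. A further 2 members linked to Kcnj10 held 87.4 and 64.3 CPM in ependymal cells and 70.0 and 44.9 in OPC cells. Gpr37l1, an orphan receptor of glia, had a member 6434 bases from its start (chr1:135153976-135161247) with 159 and 185 CPM. Ttyh1, a membrane protein of neural stem cells and glia, had one across its start (chr7:4118922-4125728) with 145 and 121 CPM. The strongest members were also wide: these 10 ran from 6563 to 22040 bases, against a median of 1492 over all members.

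**Figure D1:**
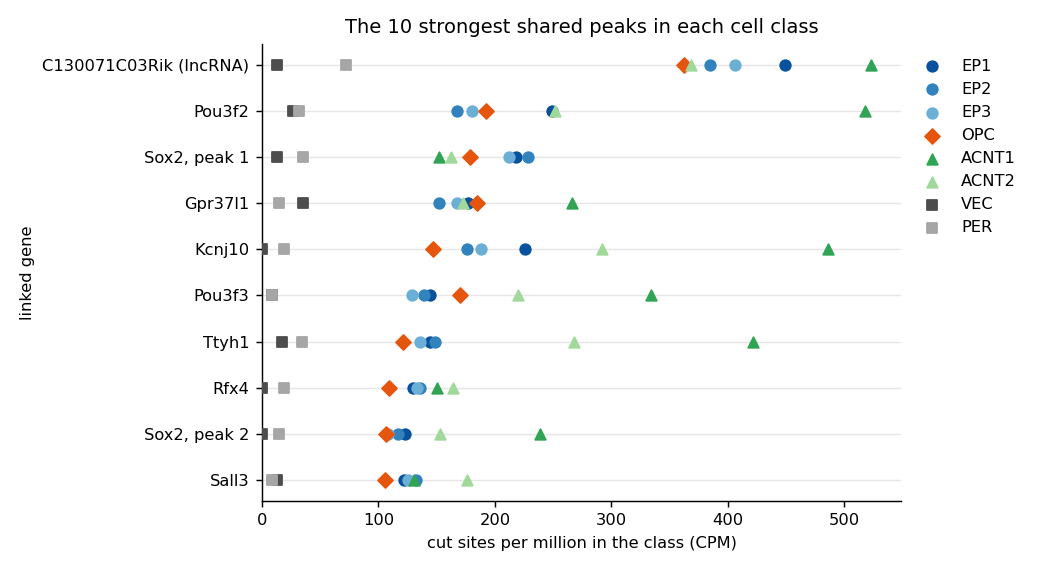
Cut sites in CPM (horizontal axis) of the 10 strongest shared peaks in each of the 8 cell classes of the single-cell ATAC sample, 1 point per class, ordered by the smaller of the ependymal and OPC levels and named by linked gene. The vascular classes VEC and PER sit below 75 CPM in all 10, and the astrocyte class ACNT1 is the highest class in 7 of them.

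The miR-9 genes were covered unevenly. The miR-9-2 hairpin lay in a member, chr13:83737126-83742676, with 81.1 CPM in ependymal and 66.5 in OPC cells, and 3 of the 5 peaks around it were members. The miR-9-3 hairpin lay in the member chr7:79504311-79510502, with 66.9 and 93.2 CPM, and 3 of 10 peaks around it were members. The peak over the miR-9-1 hairpin, chr3:88213821-88217869, was not a member, since it held 18.9 CPM in ependymal cells, 55.9 in OPC cells and 177 in astrocytes. A member did lie nearby, chr3:88228864-88233719, with 86.2, 79.9 and 414 CPM in the same order. In all, 8 of 1005 annotated miRNA hairpins lay in members and 183 in any peak.

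Members were mostly away from gene starts. Of the 1149, 312 (27.2%) came within 2 kb of an annotated start, close to the 24.2% of all peaks and far under the 75.6% of the 12402 peaks that were open in ependymal and OPC cells within 2-fold whatever the vascular level. The comparison set contains the members and differs from them only by the vascular limit, so this gap describes what that limit removes. Position itself was not used by the rule. The median distance to the nearest start was 10252 bases. A further 558 members lay inside a coding gene but not near a start, and 279 lay outside and not near. The window sets this share, which was 22.5% within 500 bases and 49.3% within 10 kb.

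Each member was linked to the coding gene with the nearest start within 50 kb (the gene's body where no start is given). This gave 806 members linked to 719 genes, of which 643 had 1 member, 67 had 2 and 9 had 3 or more. Shank2, a scaffold protein, had 4, and Sox2, Kcnj10 and Igsf9b, an adhesion protein, had 3. The Foxj1 gene lay under a peak with 248 CPM in ependymal and 89.3 in OPC cells, which was not a member, and a weaker peak beside it (chr11:116341813-116343350) was one, with 26.9 and 18.9 CPM.

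Promoters inside members had few CG pairs for open promoters. The 170 RefSeq promoters of coding genes that lay inside a member (150 genes) held a median of 9 CG pairs in 250 bases, against 18 in the 8901 promoters inside all peaks open in both classes within 2-fold and 10 in all 21262 coding promoters. At most 5 pairs were found in 30.6% of the member promoters, in 4.56% of the open set and in 37.8% of all. At least 15 were found in 33.5%, 66.4% and 36.7% in the same order. Here too only the vascular limit separates the members from the open set.

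**Figure D2:**
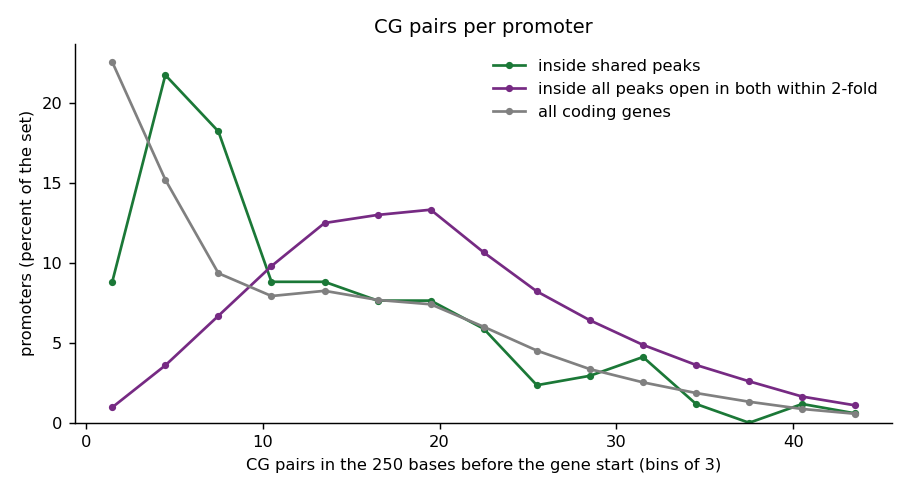
Percent of promoters (vertical axis) by the number of CG pairs in the 250 bases before the gene start (horizontal axis, bins of 3) for promoters inside shared peaks, inside all peaks open in ependymal and OPC cells within 2-fold, and of all coding genes. Promoters inside shared peaks pile up at few pairs, with a median of 9, where the open set peaks near 18.

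Short words were counted on both strands of the same windows, as a description of letters and not of binding. At least 1 E-box (the word CAGCTG, or the word CAGATG, or else the word CATATG) stood in 30% of member promoters, 18.4% of the open set and 25.2% of all coding promoters. Taken singly, CAGCTG stood in 18.2%, 10.5% and 12.1% in the same order. CAGATG stood in 11.8%, 7.79% and 12.4%, and CATATG in 2.35%, 1.11% and 2.91%, so only CAGCTG exceeded its share of all coding promoters. The word TTGGCA, which is one part of the site of the NFI family, stood in 19.4%, 8.73% and 11.5%. The SOX family word ACAATG, or its other form ACAAAG, stood in 22.4%, 15% and 22.8%. The CG content given above differed between the same sets, and its part in these shares was not tested. Of the promoters printed, Astn1 held an E-box and a SOX word, Nfia 2 E-boxes and a SOX word, Sox2 a SOX word, and the other 5 neither.

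Astrocytes, which the rule did not use, were open at many members too, though less often than at other peaks open in both classes. Cuts of the classes ACNT1 and ACNT2 (173 cells) gave a median of 16.0 CPM over members, against 34.6 in the wider open set and 2.36 over all peaks. Astrocytes were at or above the smaller of the ependymal and OPC levels at 484 members (42.1%), against 63.9% of the wider open set and 69.8% of all peaks. They lay between 0.25 times and that level at 484 members, and at or under 0.25 times at 181 (15.8%), against 4.51% of the wider open set and 22% of all peaks. Members with higher astrocyte levels included those at Aldoc, a glycolytic enzyme of astrocytes (65.3 CPM in ependymal, 61.8 in OPC and 245 in astrocyte cells), and, near the lower limit of the rule, at Gfap, the intermediate filament of astrocytes (12.8, 17.7 and 77.1 CPM). Members nearly closed in astrocytes included those of Ly6h, which encodes a small surface protein (18.8, 16.5 and 1.77 CPM), and Chd5, a chromatin remodeller (13.3, 24.4 and 0 CPM, with an interval up to 1.09).

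**Figure D3:**
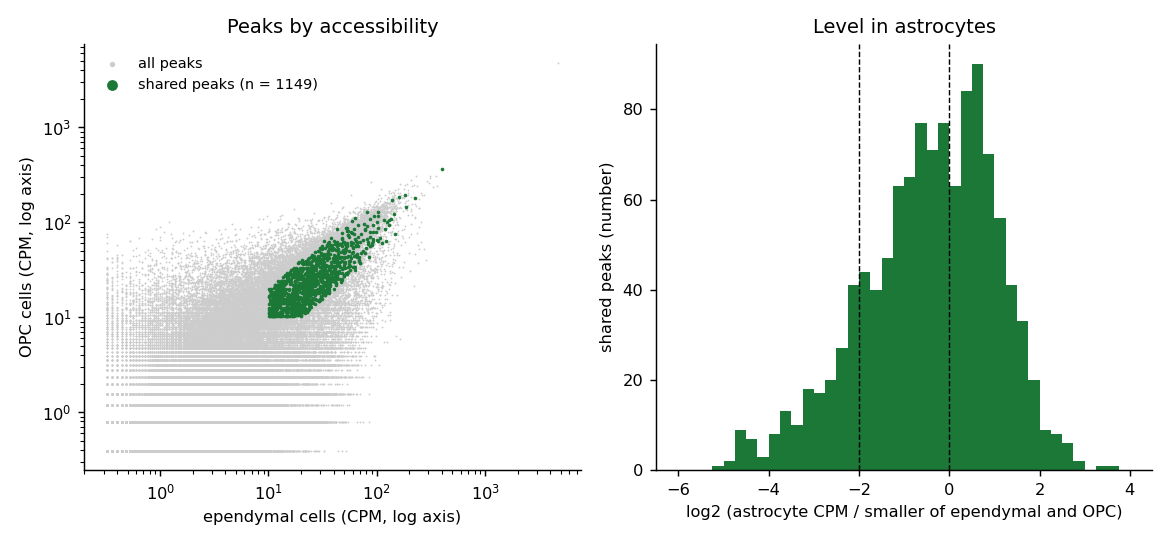
Left, each peak by its level in ependymal and OPC cells (CPM, both axes logarithmic, peaks under 0.3 CPM not drawn), with the 1149 shared peaks in green. Right, number of shared peaks by the log2 ratio of the astrocyte level to the smaller of both levels, with dashed lines at -2 and 0 and 5 members without an astrocyte cut left out; 181 lie at or left of the first line or at 0 cuts and 484 at or right of the second.

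The members' share of the cuts of each class is given as a description. The rule itself makes it similar in ependymal and OPC cells and low in vascular cells, and only the astrocyte share was not used. This share was 3.35% in ependymal cells (3.50% in EP1, 3.34% in EP2 and 3.27% in EP3) and 3.26% in OPC cells. It was 3.39% in astrocytes and 0.34% in vascular cells. In single OPC cells the share ran from 1.69% to 3.97% with a median of 3.28%, and in single PER cells from 0.08% to 1.98% with a median of 0.24%. All 3 ependymal classes reached 10 CPM at 971 members and stayed within 2-fold of each other at 1031. Depth differed, with medians of 10137 cuts per cell in EP1 and 46788 in EP2, so shares of cells with a cut (medians 12.3% and 38.6%) are not compared. Vascular cells had no cut at 225 members, where the floor of 3 counts corresponds to 2.14 CPM and the interval reaches 2.64, and VEC alone, with 456548 cuts in all, had none at 882.

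At the edges of the rule, members and other peaks differed little. Just inside the level were the peaks at Mthfd1 and Slc2a3, both with 10.0 CPM in ependymal cells, and just outside were those at Mei4 and D7Ertd443e, with 9.97 and 9.93. Around the 2-fold limit stood members at 1.997-fold and other peaks at 2.001-fold. Around the vascular limit stood members at 0.2496 and 0.2491 times the smaller level and another peak at 0.2506.

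The class names were checked against marker genes. Peaks at the starts of 8 ependymal markers summed to 629 CPM in ependymal cells and 214 in OPC cells, and those of 10 progenitor markers to 659 in OPC cells and 91.3 in ependymal cells. Astrocytes held 388 CPM at the 5 astrocyte markers with a peak, against 158 in ependymal and 126 in OPC cells. They also held 468 CPM at the progenitor markers, of which Olig2 made up 211 and Olig1 122. The 2 sums rest on unlike numbers of genes. ACNT1 and ACNT2 are called astrocytes throughout, a name that these sums do not settle. Endothelial markers (4 genes with a peak) summed to 370 CPM in VEC and 53.1 in OPC cells. PER, which supplied 942348 of the 1398896 vascular cuts, held 139 CPM at 4 pericyte markers, 156 at 3 fibroblast markers and 115 at Pdgfra, against 69.2 at Pdgfra in OPC cells. It also held 272 CPM at the ependymal markers, against 145 in VEC and 214 in astrocytes, and 179 at the progenitor markers. Its label was thus not borne out as pericytes alone, and it is called PER as the authors name it. With PER alone as the vascular pool 1083 peaks met the rule, and with VEC alone 2286. No member lay at the start of a marker of any class. For ependymal and progenitor markers the rule works toward this, since it shuts out peaks open mainly in 1 of both pools. Of 17 gene lists with 331 genes, 44 genes were linked to members: 9 of 18 astrocyte genes, 8 of 41 neural transcription factors, 7 of 33 adhesion and guidance genes and 6 of 19 membrane transport genes. Of the ependymal and cilia list 3 of 26 were linked, and of the endothelial, pericyte, fibroblast, microglia, neuron and hedgehog lists none. The counts were 3 of 20 for progenitor, 2 of 20 for mature oligodendrocyte, 3 of 22 for Notch and 4 of 26 for Wnt genes. They were 4 of 28 for growth factor receptors and 1 of 27 for BMP genes. Beside these, 719 of the 16671 genes linked to any peak were linked to members. The empty lists held only 10 to 15 genes, so none linked is not read as a lack.

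In single-cell RNA, 300 linked genes reached a low level in both cell types. UMIs (counted RNA molecules) were summed over 1713 ependymal-like and 59 progenitor-like cells and scaled to CPM. These cells may mix both genotypes and the uninjured and injured states, unlike the uninjured ATAC sample. Of 683 linked genes in the matrix, 300 (43.9%) had at least 10 CPM in both, against 6711 of all 27998 genes. In the progenitor-like pool 10 CPM is 4.24 UMIs, and Foxj1, an ependymal gene with 301 CPM in ependymal-like cells, had 7.07 CPM there from 3 UMIs. The share due to free RNA was not measured, so levels near 10 CPM are not read as expression. A further 84 reached it in ependymal-like cells only, 92 in progenitor-like cells only and 207 in neither. Levels of RNA could still differ between the classes: Sox2 had 477 CPM in ependymal-like (interval 463 to 490) and 141 in progenitor-like cells (108 to 182), and Gpr37l1 had 140 (133 to 147) and 1030 (935 to 1131). Ptprz1 had 25.2 and 1741 CPM, Kcnj10 135 and 245, and Pou3f2 68.2 (63.3 to 73.4) and 80.1 (55.5 to 112). Of the 59 progenitor-like cells, 22 and 35 came from 2 library codes that held only 25 and 11 ependymal-like cells, so class and library cannot be told apart. No code could be tied to a sample, and there is no test.

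With added Olig2, more linked genes were called at 5 dpi than at the other times, most of them lower. Of the 719 linked genes, 630 had bulk values that passed the filter on low values, 4 were under it and 85 have no row in the table. Their values are normalised counts, tested as log2(value + 1) with limma over 15811 genes, and a gene was called at an adjusted p under 0.05. Olig2 itself read between 2.2 and 17.4 in 5 of the 6 Foxj1-tdT libraries, 195 in Foxj1-tdT 5 dpi replicate 2, and between 1690 and 3961 in the 6 Foxj1-Olig2-tdT libraries. Both uninjured Foxj1-tdT libraries were nearly alike (r = 0.989 across genes), while r was 0.864 to 0.928 for every other pair. Counts with that pair entered as 1 library therefore stand beside the main ones.

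Without injury, 56 of 630 linked genes (8.89%) were called, 26 higher and 30 lower, against 7.79% of all genes tested, 4.72% higher and 3.07% lower. With the uninjured pair as 1 library, 8 were called, 1.27%, against 1.33% of all. At 1 dpi, 35 (5.56%) were called, 29 higher and 6 lower, against 1.84% of all genes, 1.29% higher and 0.55% lower, or 13 (2.06%) against 0.49% with the pair as 1 library. At 5 dpi, 121 (19.2%) were called, 29 higher and 92 lower, against 9.23% of all genes, 3.36% higher and 5.88% lower, or 75 (11.9%) against 5.71%. Without Foxj1-tdT 5 dpi replicate 2, the library with more Olig2, 55 (8.73%) were called at 5 dpi, 11 higher and 44 lower, against 4% of all. Without Foxj1-Olig2-tdT 5 dpi replicate 2, 52 (8.25%) were called, 6 higher and 46 lower, against 3.50%. Over the mean of the 3 times, which uses the same libraries, 92 (14.6%) were called, 36 higher and 56 lower, against 7% of all, 3.61% higher and 3.39% lower, or 41 (6.51%) against 2.23%. The median log2 fold change of linked genes was -0.08 without injury, 0.15 on the first day and -0.32 at 5 dpi, against 0.00, -0.02 and 0.01 over all genes tested.

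The effect of genotype itself differed between 1 dpi and no injury for 20 linked genes (3.17%), against 2.77% of all genes tested, and between 5 dpi and no injury for 62 (9.84%), 14 higher and 48 lower, against 7.28% (limma interaction, adjusted p under 0.05). All calls without injury, over the mean and in these differences use the values of the uninjured Foxj1-tdT pair. Calls at 1 dpi and 5 dpi depend on that pair too, through the estimate of spread that all 6 groups share. Most calls did not hold under every setting: 7 of 56 without injury, 8 of 35 at 1 dpi, 43 of 121 at 5 dpi and 39 of 92 over the mean were kept in all 18 alternatives.

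Genes linked to the wider open set stayed near the background. Of 8832 such genes, 1.81% were called at 1 dpi and 9.44% at 5 dpi, with medians of -0.05 and 0.05. A narrower link used only members within 2 kb of a start, or of the gene's body where no start is given. With it, 71 of 288 genes (24.7%) were called at 5 dpi, 59 of them lower. Linked genes were somewhat more abundant than all genes tested, with a median of 8.13 against 7.80 for the mean log2 value, and the wider open set stood at 8.66.

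**Figure D4:**
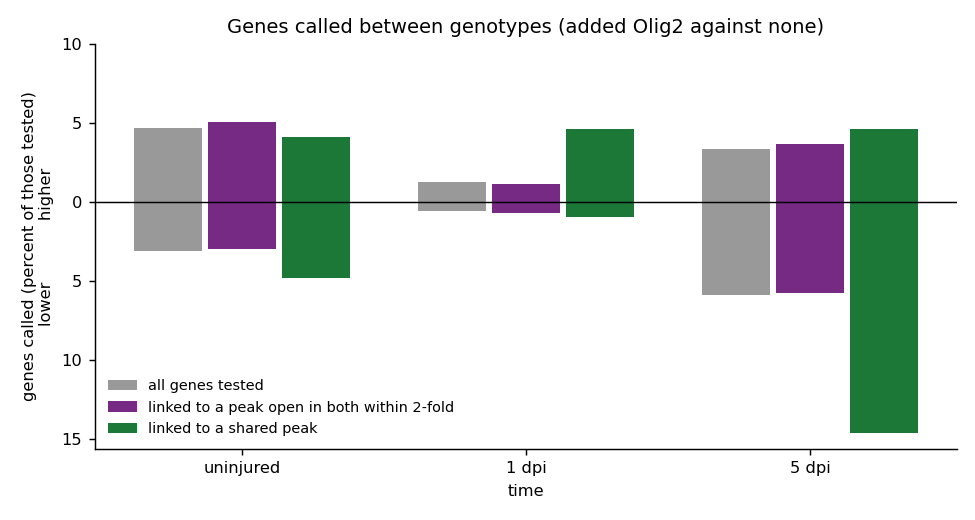
Percent of tested genes called higher (up) or lower (down) in Foxj1-Olig2-tdT than in Foxj1-tdT libraries (limma, adjusted p under 0.05, vertical axis) at each time, for all 15811 genes tested, the 8832 linked to a peak open in both classes within 2-fold and the 630 linked to a shared peak. The linked genes stand at 4.60% higher at 1 dpi and 14.6% lower at 5 dpi.

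Ependymal markers were higher with added Olig2 at 1 dpi and lower at 5 dpi, and were also higher without injury. The 8 ependymal markers summed to 0.252% and 0.170% of normalised counts in the Foxj1-tdT libraries at 1 dpi and to 0.484% and 0.413% in the Foxj1-Olig2-tdT libraries. At 5 dpi they summed to 0.183% and 0.209% against 0.0725% and 0.0538%, and without injury to 0.741% and 0.747% against 0.935% and 0.901%. Of 24 tested genes of the wider ependymal and cilia list, 5 rose and 1 fell at 1 dpi and 19 fell at 5 dpi. Astrocyte markers summed to between 0.0933% and 0.263% over the 12 libraries and those of mature oligodendrocytes to between 0.0166% and 0.173%. Without injury, mature oligodendrocyte markers were lower in both libraries with added Olig2, at 0.0568% and 0.0452% against 0.109% and 0.112%. Both lists overlapped between genotypes at 1 dpi, and their sums were higher in both libraries with added Olig2 at 5 dpi, at 0.159% and 0.141% against 0.123% and 0.135% for astrocytes and at 0.0438% and 0.0335% against 0.0211% and 0.0280% for mature oligodendrocytes. Within the astrocyte sum members differed, since Slc1a2, Aldh1l1 and Slc6a11 fell at 5 dpi. Progenitor markers, which include Olig2, were higher in both libraries with added Olig2 at each time, at 0.0185% and 0.0127% against 0.0005% and 0.0004% without injury, 0.0324% and 0.0317% against 0.0009% and 0.0003% at 1 dpi, and 0.0406% and 0.0376% against 0.0018% and 0.0145% at 5 dpi, where the 0.0145% is again Foxj1-tdT replicate 2. Neuron markers (3 genes measured) were higher in both libraries with added Olig2 without injury, at 0.0187% and 0.0192% against 0.0077% and 0.0079%. They overlapped between genotypes at 1 dpi and were again higher in both at 5 dpi, at 0.0599% and 0.0787% against 0.0428% and 0.0234%. Fibroblast markers were also higher in both at 5 dpi, at 0.0710% and 0.0650% against 0.0502% and 0.0351%. Endothelial markers stayed at or under 0.0020% and microglial ones at or under 0.0004%. In bulk samples fewer cells of a type and less RNA per cell cannot be told apart, and the part of these cell types in the linked genes' counts was not tested.

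Calls were also counted by the astrocyte level of the linked member. Among the 258 genes with a member at least as open in astrocytes, the uninjured comparison called 16 higher and 5 lower (8.14% in all), that at 1 dpi 19 higher and 2 lower (8.14%), and that at 5 dpi 14 higher and 33 lower (18.2%). Among the 114 with a member at most 0.25 times as open there, these counts were 3 and 10 (11.4%), then 2 and 0 (1.75%), then 6 and 18 (21.1%). Over all genes tested the shares were 7.79%, 1.84% and 9.23%, so that 2 of 114 is near the background. The difference between these sets was not tested.

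Glial membrane proteins were among the linked genes that rose. Gpr37l1 read 2025 and 2135 in uninjured Foxj1-tdT libraries against 5644 and 4551 with added Olig2, 1709 and 1746 against 6342 and 8786 at 1 dpi, and 1913 and 2133 against 3974 and 3289 at 5 dpi. The genotypes did not overlap at any time. It rose by 1.28 ± 0.19 on the log2 scale (SE, limma, adjusted p = 0.0035) without injury, by 2.11 ± 0.19 (adjusted p = 0.0026) at 1 dpi and by 0.84 ± 0.19 (adjusted p = 0.021) at 5 dpi, and the first 2 of these calls held in all 18 alternatives. The call at 5 dpi ended when any 1 of the 4 libraries of that time was left out.

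Kcnj10 read 1633 and 1672 against 3006 and 4673 without injury, 975 and 667 against 4369 and 4236 at 1 dpi, and 1851 and 3001 against 2632 and 2513 at 5 dpi. Libraries with added Olig2 were all higher at the first 2 times and lay within the range of the others at 5 dpi. The rise at 1 dpi was 2.41 ± 0.28 on the log2 scale (limma, adjusted p = 0.0035) and held in all 18 alternatives, while the value of 0.13 ± 0.28 at 5 dpi did not pass (adjusted p = 0.84). Ttyh1 rose over the mean of the 3 times by 1.20 ± 0.18 (adjusted p = 0.0045), and Ptprz1 by 2.01 ± 0.24 (adjusted p = 0.0016), both held in all 18.

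Ptprz1, whose promoter is printed above, read 140 and 115 against 593 and 1120 without injury, 808 and 986 against 3320 and 3595 at 1 dpi, and 1051 and 2735 against 4886 and 4090 at 5 dpi. Every library with added Olig2 was above both others of its time. Gabrb1 went both ways: it read 1089 and 1045 against 439 and 578 without injury but 122 and 121 against 1027 and 1105 at 1 dpi and 289 and 301 against 901 and 689 at 5 dpi. The fall without injury ended in 4 alternatives. The rise at 1 dpi was 3.12 ± 0.25 on the log2 scale (limma, adjusted p = 0.0026) and held in all 18 alternatives.

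Of the 630 linked genes tested, 4 (0.635%) were called higher at each of the 3 times, against 0.145% of all genes tested (23 genes): Gpr37l1, Tspan12, a tetraspanin of Norrin signalling, Pde4b, which breaks down cyclic AMP, and Tsc22d4, a leucine zipper protein chosen here after its values were seen. For the last 3 of these, at least 2 of the single-time calls ended in 1 or more alternatives, while the call over the mean held in all 18. Pde4b read 52.3 and 45 against 233 and 350 without injury, 166 and 370 against 1048 and 1096 at 1 dpi, and 177 and 100 against 1061 and 1028 at 5 dpi. The genotypes were apart at each time, and the mean rise was 2.53 ± 0.26 on the log2 scale (limma, adjusted p = 7.5e-04). Alpl, alkaline phosphatase, at 1 dpi was listed at 0 in the pair of Foxj1-tdT libraries and read 540 and 240 with added Olig2, and 20.4 and 0.8 against 366 and 143 at 5 dpi.

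Cdk1, the kinase of mitotic entry, fell without injury, at 62.3 and 77.8 against 0 and 2.5 (limma, adjusted p = 0.0017). It read 589 and 433 against 1440 and 3366 at 5 dpi, where the difference did not pass (adjusted p = 0.074).

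**Figure D5:**
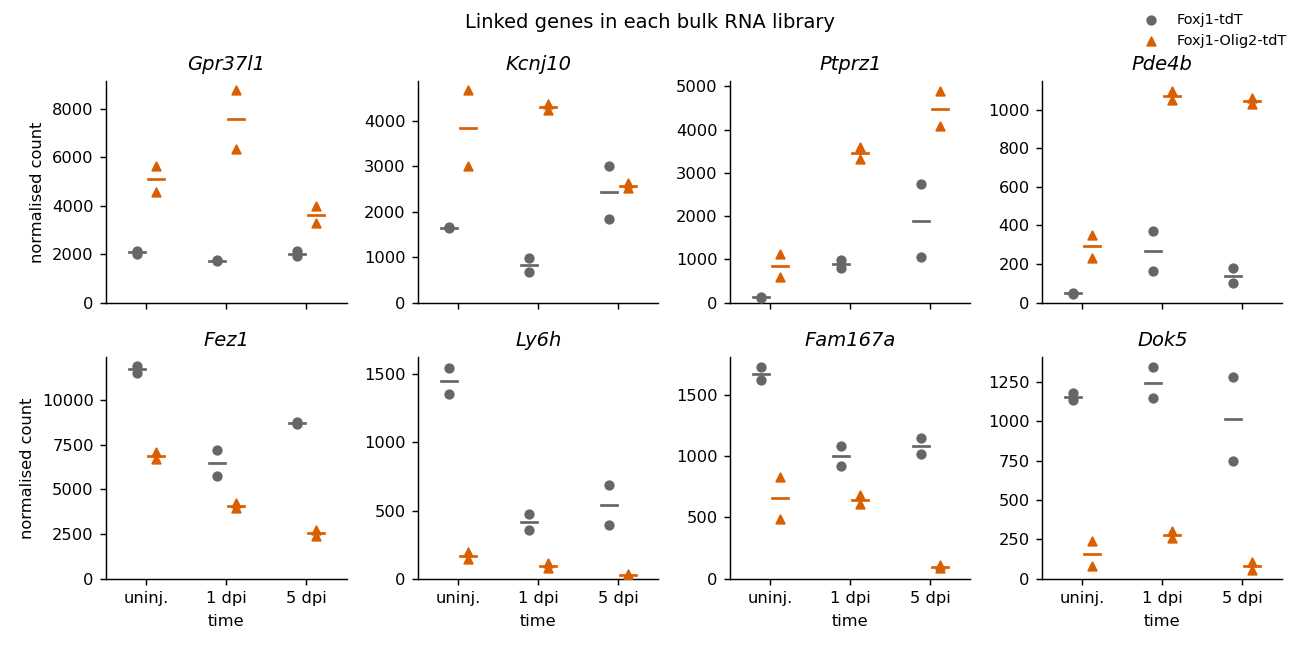
Normalised counts (vertical axis, from 0) of 8 linked genes in each bulk RNA library by time and genotype, 1 point per library and a line at the mean of each pair. The upper 4 genes rose and the lower 4 fell over the mean of the 3 times with added Olig2; Gpr37l1 and Pde4b are apart between genotypes at every time, and Kcnj10 is not at 5 dpi.

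Genes of transport, signalling and adhesion were among the linked genes that fell. Fez1, whose member at the start held 22.2 CPM in ependymal and 16.5 in OPC cells, read 11920 and 11513 against 7066 and 6688 without injury, 7192 and 5773 against 4220 and 3939 at 1 dpi, and 8773 and 8654 against 2704 and 2384 at 5 dpi. The genotypes were apart at each time. It was the only linked gene called lower at all 3 (0.159%, against 0.0443% of all genes tested, or 7 genes), and its fall at 5 dpi of -1.78 ± 0.13 (limma, adjusted p = 1.3e-04) held in all 18 alternatives, whereas that at 1 dpi ended in 9 and that without injury in 3.

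Ly6h read 1352 and 1548 against 195 and 146 without injury, 475 and 360 against 115 and 76.0 at 1 dpi, and 393 and 686 against 35.9 and 14.2 at 5 dpi. Over the 3 times it fell by 3.23 ± 0.29 on the log2 scale (limma, adjusted p = 4.4e-04). Dok5, a docking protein of receptor kinases, fell by 2.96 ± 0.30 over the same mean (adjusted p = 7.5e-04) and Rab6b, a GTPase of Golgi traffic, by 2.53 ± 0.33 (adjusted p = 0.0025). Lrp8, a receptor of reelin, fell by 2.10 ± 0.28 (adjusted p = 0.0029) and Fam167a by 1.82 ± 0.17 (adjusted p = 4.5e-04). For each of these 5 genes the 6 libraries with added Olig2 lay below the other 6, and the calls held in all 18 alternatives.

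At 5 dpi some falls were near complete. Srcin1, an adaptor of Src kinases, read 138 and 78.5 against 0.8 and 1.9, a change of -5.53 ± 0.71 on the log2(value + 1) scale (limma, adjusted p = 0.0015). Fhdc1, an actin-nucleating formin, read 71.8 and 121 on the first day, and 87.2 and 42.5 at 5 dpi, in the mice without added Olig2, and was listed at 0 in all 4 with added Olig2. Chd5 went the other way, at 0 and 0.5 against 68.0 and 35.2 (adjusted p = 0.0035).

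Gene lists moved in part. Of the 9 linked astrocyte genes, Slc6a11, Aldh1l1, Aldoc, Gfap and Slc1a2 fell at 5 dpi and none rose, and of the 17 tested in the whole list 6 fell and 1 rose. The median over the 9 was -1.74, against 0.01 over all genes tested. Slc6a11, a GABA transporter, read 54.3 and 37.7 against 1.8 and 0, and its call was the only one of the 5 that held in all 18 alternatives (limma, adjusted p = 0.0028). Without injury and at 1 dpi 1 of the 9, Kcnj10, rose. Of the 6 linked transport genes, Kcnj10, Kcnj16, Atp1b2 and Gpr37l1 rose at 1 dpi and none fell, and of the 17 tested in the whole list 5 rose and none fell. At 5 dpi 3 of the 6, Slc1a2, Slc6a11 and Kcnj16, fell and 1, Gpr37l1, rose, with a median of -0.56, and in the whole list 5 fell and 1 rose. Atp1b2, a subunit of the sodium pump, read 5508 and 3892 against 18584 and 20474 at 1 dpi, in a call that ended in 3 alternatives.

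Of the 8 linked neural transcription factors none was called at the first 2 times, and 1, Sox21, fell at 5 dpi, in a call that ended in 7 of 18 alternatives. Sox2 read 1870 and 1885 against 1830 and 1074 without injury, 1370 and 1324 against 1202 and 1011 at 1 dpi, and 1710 and 2378 against 1215 and 892 at 5 dpi, where its change of -0.95 ± 0.28 did not pass (limma, adjusted p = 0.060). Pou3f2 and Pou3f3 did not pass at any time, with log2 values between -0.55 and 0.98 and between -0.32 and 1.43.

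Among the genes with the most members, Shank2 fell at 5 dpi by 2.65 ± 0.46 on the log2 scale (adjusted p = 0.0062), from 279 and 725 to 98.1 and 50.9, in a call that ended without Foxj1-Olig2-tdT 5 dpi replicate 2. Igsf9b fell without injury, at 1771 and 1725 against 705 and 492 (adjusted p = 0.020), in a call that ended in 4 alternatives. Foxj1 read 1369 and 1113 against 2193 and 2302 at 1 dpi, a rise of 0.86 ± 0.16 (adjusted p = 0.031) that ended in 7.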

How the data were processed

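Single-cell ATAC values were cut site counts per peak and cell, and single-cell RNA values UMI counts per gene and cell, both deposited by the authors, with the authors' class of each cell for the ATAC data. Bulk RNA values were a signal, normalised counts per gene deposited by the authors; how they were counted and scaled is not given in the sources used here, so their depth is unknown, and they summed to between 12601300 and 13878100 per library. Tools listed in the submitters' processing notes are deepTools, SAMtools, Bowtie2 and Cell Ranger with its ATAC version, and the build is mm10; roles and versions are not given. The columns of 362 cells without a library code were not used, nor were the 12 bulk ATAC samples.

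The members, gene lists and named genes were chosen with earlier results of these data known, so counts over them are no independent support. Named regions were the 10 strongest members and those nearest each limit; named genes were those in a list, the 5 with the most members, and, per contrast, the 6 highest and 6 lowest called genes with separate libraries and a mean of at least 50 in 1 group. Some genes that the rule names are not reported here. The genes described in the text were picked with their values known, favouring calls kept in all alternatives, and are therefore firmer than a typical call. Links used RefSeq GRCm38.p6 tables; 14 linked genes were matched to bulk rows by an older name.

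Bulk values were fitted as log2(value + 1) in 1 model of 6 group means with limma 3.58.1 (R 4.3.3, trended empirical Bayes), on the 15811 of 16301 genes that reached 10 in 2 or more libraries, with Benjamini-Hochberg adjustment per contrast. On simulated data for the 5 dpi contrast the fit was checked with 200 genes changed by 2 on the log2 scale. For single-cell RNA, scanpy 1.11.5 formed clusters (Leiden resolution 1, 15 neighbours, 30 components of 2000 variable genes), which were named by markers. Clusters led by genes of another class, or with genes of blood cells among the leading ones, stayed unnamed. Doublets were not called again, and 6 barcodes occurred in more than 1 library. Replicate numbers recur in all groups, but the deviations of same-numbered libraries correlated at -0.03 to 0.02 over 15 pairs, so no block was used. Alternatives are given in the closing section.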

Additional observations from a re-analysis of the deposited data

Results flagged for a closer look

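The effect of added Olig2 differed between times for the following 22 of the named linked genes, by a test of the difference itself (an interaction term in limma, adjusted p under 0.05 over all genes tested). The same test called 20 of 630 linked genes (3.17%) at 1 dpi, against 2.77% of all, and 62 (9.84%) at 5 dpi, against 7.28%. Values are differences of log2 fold changes, injured minus uninjured, and genes at or near 0 in one group give values that depend on the pseudocount. At 1 dpi the effect was higher than without injury for Gabrb1 (4.2), Cdk1 (4.75), Folh1 (5.71), Alpl (7.13) and Nrg2 (8.48), and lower for Myh14 (-7.76), Taf13 (-7.55), Wnt9a (-7.20), Fhdc1 (-7.08) and Cdh22 (-6.16). At 5 dpi it was higher for Notch1 (1.46), Gabrb1 (2.5), Gap43 (4.91) and Cdk1 (7.36), and lower for Cdh22 (-7.26), Fgd3 (-7.20), Taf13 (-6.57), Fhdc1 (-6.47), Gpam (-6.34), Myh14 (-6.03), Srcin1 (-5.16), Slc6a11 (-4.45), Slc1a2 (-3.05), Shank2 (-2.51), Dnah5 (-2.28), Fam167a (-2.05), Kcnj16 (-1.48) and Fez1 (-1.01). The Foxj1-tdT uninjured libraries enter every one of these differences. For Cdh22, Taf13 and Myh14 both of them read 0.7 or less, so the differences rest on that pair.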

How the results depend on the processing

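The number of shared peaks depended on the rule: it was 2151 at a minimum of 5 CPM, 528 at 20 CPM, 623 and 1993 with a vascular limit of 0.125 and 0.5 times, 2316 when scaled by cells, and 2286 against VEC alone. The share near a gene start was 22.5% within 500 bases and 49.3% within 10 kb. A narrower link used only members within 2 kb of a start, or of the gene's body where no start is given. It gave 24, 16, 71 and 45 genes called without injury, at 1 dpi, at 5 dpi and over the mean. Entering both uninjured Foxj1-tdT libraries as 1 gave 8, 13, 75 and 41. Leaving out each library in turn gave 7 to 62 calls without injury, 11 to 43 at 1 dpi, 52 to 141 at 5 dpi and 40 to 117 over the mean. Without uninjured Foxj1-tdT replicate 1 or 2 the counts were 10 and 7 (no injury), 13 and 13 (1 dpi), 75 and 75 (5 dpi), and 41 and 40 (mean). At 1 dpi, leaving out Foxj1-tdT replicate 2 of that time gave 12, and leaving out either library with added Olig2 gave 13 (replicate 1) and 11 (replicate 2). At 5 dpi the counts were 55 without Foxj1-tdT 5 dpi replicate 2 and 52 without Foxj1-Olig2-tdT 5 dpi replicate 2, and over the mean 57 without the latter. The causes were not tested. With the replicate number as a block, 50, 25, 103 and 78 were called, but the numbers do not pair the libraries. Of 1564 alternatives for single named genes, 1269 kept the call, 295 lost it and 0 reversed, and 34 of 87 such values were kept in every one. At Leiden resolution 0.5 no cluster was named progenitor-like, so no value was obtained. There, 1 cluster of 105 cells held all 10 progenitor markers but stayed unnamed, since genes of blood cells were among its leading genes. Depth limits the vascular side of the rule most, since the interval of a vascular count of 0 reaches 2.64 CPM.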
